A study of Mus musculus with 6 samples.

Results

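The genes described are the 44 collagen chain genes of the mouse, taken from the 24749 genes of the deposited table as every gene whose symbol reads Col, a number, the letter a and a number. They were sorted by the kind of assembly their chains form into 11 fibrillar, 9 fibril-associated, 9 network, 6 beaded filament and 4 transmembrane chains, with 5 remaining chains (anchoring fibril, multiplexin and others). RNA from dissected kidneys at embryonic day E15.5 was compared between 3 libraries of the genotype Foxd1cre; Yapc/c;Tazc/c, called knockout, and 3 Cre-negative libraries labelled wild-type, all of mixed strain. In the knockout, Cre recombinase made in the Foxd1 lineage of the kidney stroma acts on loxP-flanked Yap (Yap1) and Taz (Wwtr1), which Hippo signalling restrains and which switch on genes together with TEAD proteins. The other cells of the organ keep both genes and contribute to every value. The labels do not tell whether Cre-negative kidneys carried floxed alleles or how many embryos stand behind each library. A p-value here thus reflects variation between libraries only, and that variation may be technical. In whole-organ RNA, fewer cells of a type and less RNA per cell cannot be told apart.

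Collagens are secreted or membrane proteins built from chains that wind around each other in a triple helix. The helix forms only where glycine recurs at regular steps along the chain, every triplet of residues beginning with it, because no larger side chain fits at its axis. Fibrillar chains form the cross-banded fibrils of connective tissue, and fibril-associated chains sit on the surface of those fibrils. Network chains of type IV form the sheet of basement membranes, beaded filament chains of type VI lie between basement membrane and fibrils, and transmembrane collagens stay on the cell surface until they are shed. In the embryonic kidney the fibrils are laid down mainly by stromal, perivascular and capsule cells, whereas basement membranes surround the ureteric bud, the tubules, the vessels and the forming glomeruli.

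The coding repeat that defines the family is shown for the 5 genes called different between genotypes. Each stretch is the first 63 bases of the longest unbroken run of glycine-led codon triplets, with every glycine codon in capitals, from the longest annotated coding sequence of GENCODE M21.
Col3a1: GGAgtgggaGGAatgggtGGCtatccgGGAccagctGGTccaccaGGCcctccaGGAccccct
Col5a2: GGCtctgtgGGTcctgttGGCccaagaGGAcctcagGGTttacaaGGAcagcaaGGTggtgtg
Col12a1: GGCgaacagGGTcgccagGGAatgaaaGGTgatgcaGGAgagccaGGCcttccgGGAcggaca
Col14a1: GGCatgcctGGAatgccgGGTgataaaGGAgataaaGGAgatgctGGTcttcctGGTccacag
Col25a1: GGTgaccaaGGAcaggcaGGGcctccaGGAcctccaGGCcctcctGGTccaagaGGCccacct
The stretches begin at codons 164, 211, 2805, 1517 and 189. In Col3a1 the run goes on for 344 triplets and in Col5a2 for 339, and over the 11 fibrillar chains the longest run spanned 216 to 344 triplets. Col12a1 and Col14a1 share a different plan, since in each the longest run was 32 triplets and the repeat was split into 5 runs (of at least 5 triplets) holding 83 triplets in all. Those runs took up 8.12% of the 3065 codons of Col12a1 and 13.8% of the 1798 codons of Col14a1. Among the other fibril-associated chains Col20a1 also had a longest run of 32 triplets, while the longest runs of Col9a1, Col9a2, Col9a3 and Col22a1 were 113 triplets. In Col25a1 the longest run was 40 triplets, and 71.2% of its 666 codons lay in runs.

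Levels are given in FPKM, fragments per kilobase of transcript after scaling to library size, which allows levels of different genes to be compared. The value of 1 fragment on genes with a single transcript placed the depth at roughly 12800000 to 15400000 fragments per library, so a single fragment from a transcript of 5 kb adds 0.013 to 0.0157 FPKM. The floxed gene Wwtr1 measured 20.2, 17.7 and 18.5 in the wild-type libraries and 13.5, 12.8 and 12.2 FPKM in the knockout libraries, and Yap1 45.5, 52.7 and 55.0 against 48.7, 43.2 and 44.2 FPKM; these are levels of the whole gene, not of the floxed exons. All 7 markers that define the kidney (Six2, Pax2, Wt1, Ret, Wnt11, Foxd1 and Cdh1) were present in every library. Of these 7, 6 had log2 changes above 0 (median 0.22) and 0 were called by limma. Pax2, Wt1, Ret and Cdh1 were higher in each knockout library than in any wild-type library, as were 12.5% of all genes tested, and Foxd1 was lower. The part of this shift in the collagen results below, that of Col25a1 among them, was not tested. Wild-type library 3 stood apart in skeletal muscle transcripts: the 5 markers Myod1, Myog, Actc1, Acta1 and Ttn summed to 52.5 FPKM there, against 2.98 and 5.93 FPKM in the other wild-type libraries and 4.48 to 9.76 FPKM in the knockout libraries, and all 5 were highest in that library. Of 6 cartilage markers, Snorc was listed at 0 throughout and Acan, Matn1 and Matn3 reached at most 0.311 FPKM, while Hapln1 measured 4.85 to 6.81 FPKM. Cnmd, the last of them, stood at 0.923 to 0.974 in wild-type and 0.615 to 0.699 FPKM in knockout libraries, without overlap (log2 -0.25, limma adjusted p = 0.255). The 4 smooth muscle markers (Acta2, Tagln, Myh11 and Cnn1) summed to 57.4 to 64.4 in wild-type and 27.9 to 40.4 FPKM in knockout kidneys, so the groups did not overlap. Acta2 and Tagln among them were called lower (limma adjusted p = 0.023 and 0.0402). Myh11 overlapped between genotypes and Cnn1 did not, and neither was called. The part of muscle content in the results below was not tested. The 5 stromal markers (Foxd1, Pdgfra, Pdgfrb, Meis1 and Tcf21) summed to 233 to 244 in wild-type and 226 to 234 FPKM in knockout libraries. Of these 5, 4 had log2 changes below 0, 3 of them at an unadjusted p under 0.05, and 0 were called by limma. Foxd1, whose promoter drives the Cre, measured 6.90, 6.86 and 9.16 FPKM against 5.20, 4.03 and 4.28 FPKM (58.9% of wild type, log2 -0.65, limma adjusted p = 0.0886), and Meis1 54.9 to 56.6 FPKM against at most 50.2 FPKM, both without overlap. Pdgfra (log2 0.14), Pdgfrb (log2 -0.25) and Tcf21 (log2 -0.04) overlapped between genotypes. Only the knockout libraries carry the Cre, so any effect of the Cre allele on Foxd1 cannot be told apart from loss of Yap and Taz.

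Collagen transcripts went both ways. Of the 44 chains, 38 passed the filter on low values (a mean of at least 0.5 FPKM) and were tested on log2(FPKM + 1) with limma. Of these, 4 were called lower in knockout kidneys (Col12a1, Col5a2, Col3a1 and Col14a1) and 1 was called higher (Col25a1) at a Benjamini-Hochberg adjusted p under 0.05. Over all 16899 genes tested, 0.734% were called, 0.604% lower and 0.13% higher. At an unadjusted p under 0.05, 7 chains were lower and 9 higher by limma, against 6.94% and 9.14% of all genes. The median log2 change of the 38 chains was -0.000165 and that of all genes tested -0.002, with 19 chains below 0 and 19 above (50.4% of all genes were below 0). Groups did not overlap for 7 chains in the lower direction and 7 in the higher direction, against 11.8% and 12.5% of all genes. By class, the median log2 change was -0.15 for fibrillar, -0.03 for fibril-associated, -0.06 for network, 0.21 for beaded filament, 0.34 for transmembrane and 0.31 for the remaining chains. The beaded filament median was 0.03 when all 6 chains were tested with no filter. Differences between classes were not tested. Summed over the fibrillar chains the level was 425, 480 and 567 in wild-type and 384, 329 and 359 FPKM in knockout libraries. Col3a1 alone made up 256, 262 and 308 FPKM of that sum in wild-type and 188, 169 and 179 FPKM in knockout libraries. The fibrillar sum without Col3a1 was not worked out, so its fall cannot be read as one of the whole class. Over the transmembrane chains the sum was 21.9, 22.0 and 23.1 against 34.6, 31.1 and 33.0 FPKM. The summed level of all 44 chains was 828, 942 and 1040 in wild-type and 954, 780 and 842 FPKM in knockout libraries, which overlap. Within that sum the share of Col3a1, the most abundant chain, was 27.8% to 30.9% in wild-type and 19.7% to 21.6% in knockout libraries.

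**Figure D1:**
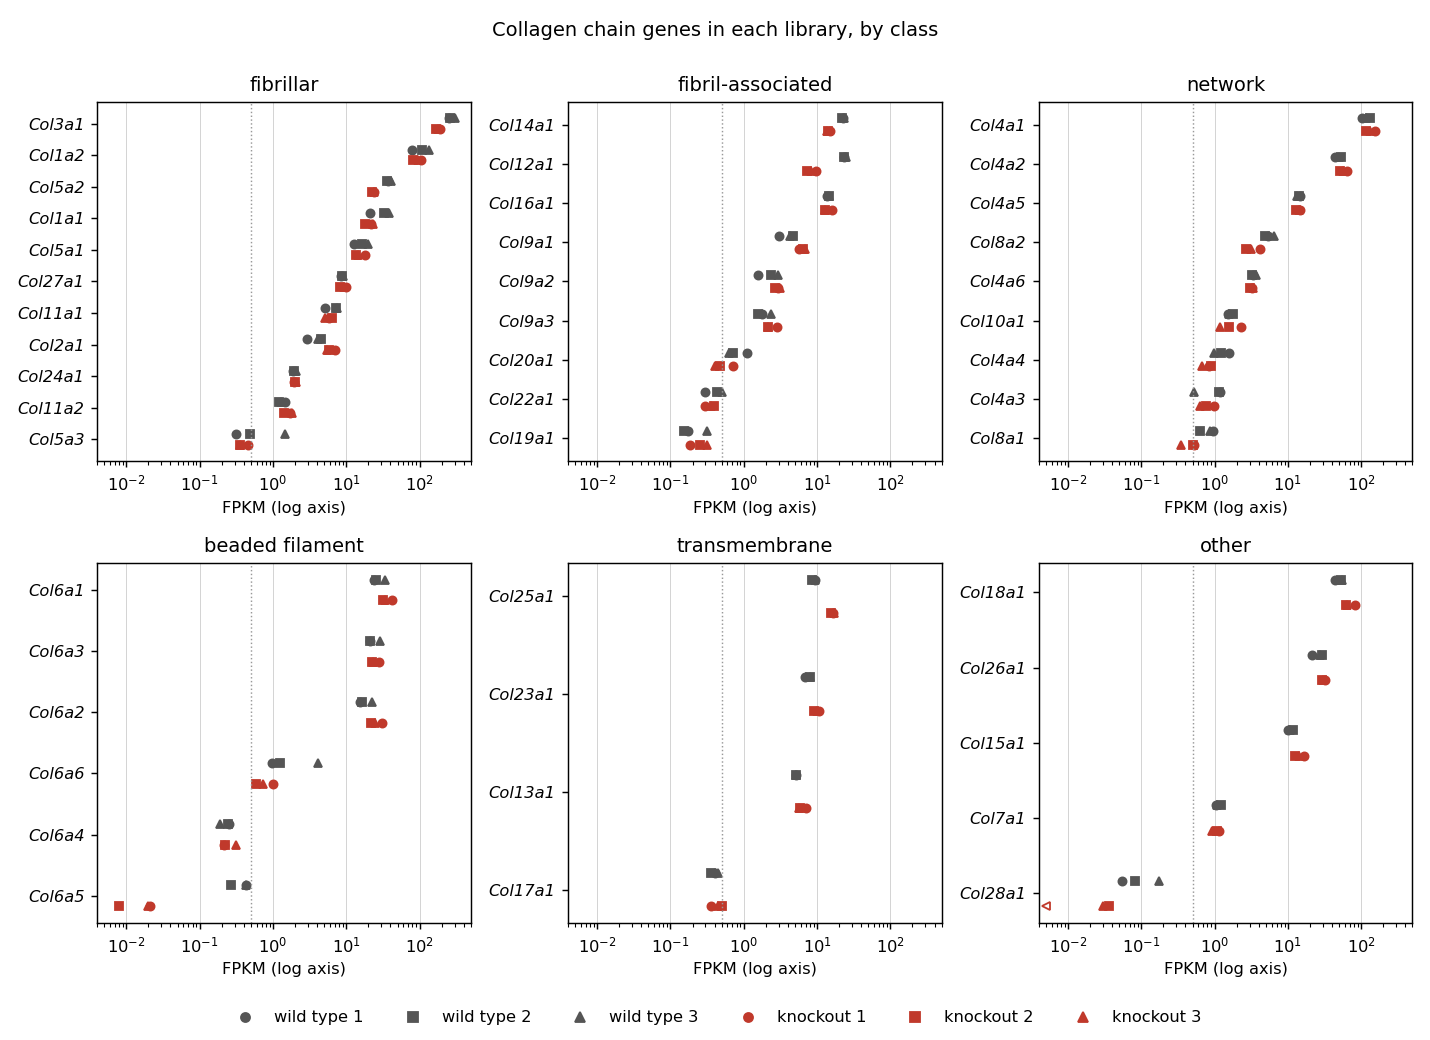
Level of each of the 44 collagen chain genes in FPKM (log axis) in the 3 wild-type (grey) and 3 knockout (red) libraries, 1 panel per class, 1 symbol shape per replicate number; the dotted line marks the 0.5 FPKM that the mean had to reach for a test, and an open triangle at the left edge stands for a value of 0. Col12a1, Col14a1, Col3a1 and Col5a2 lie lower in all knockout libraries than in any wild-type library, Col25a1 lies higher, and Col6a6 and Col5a3 are high in wild-type library 3 alone.

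**Figure D2:**
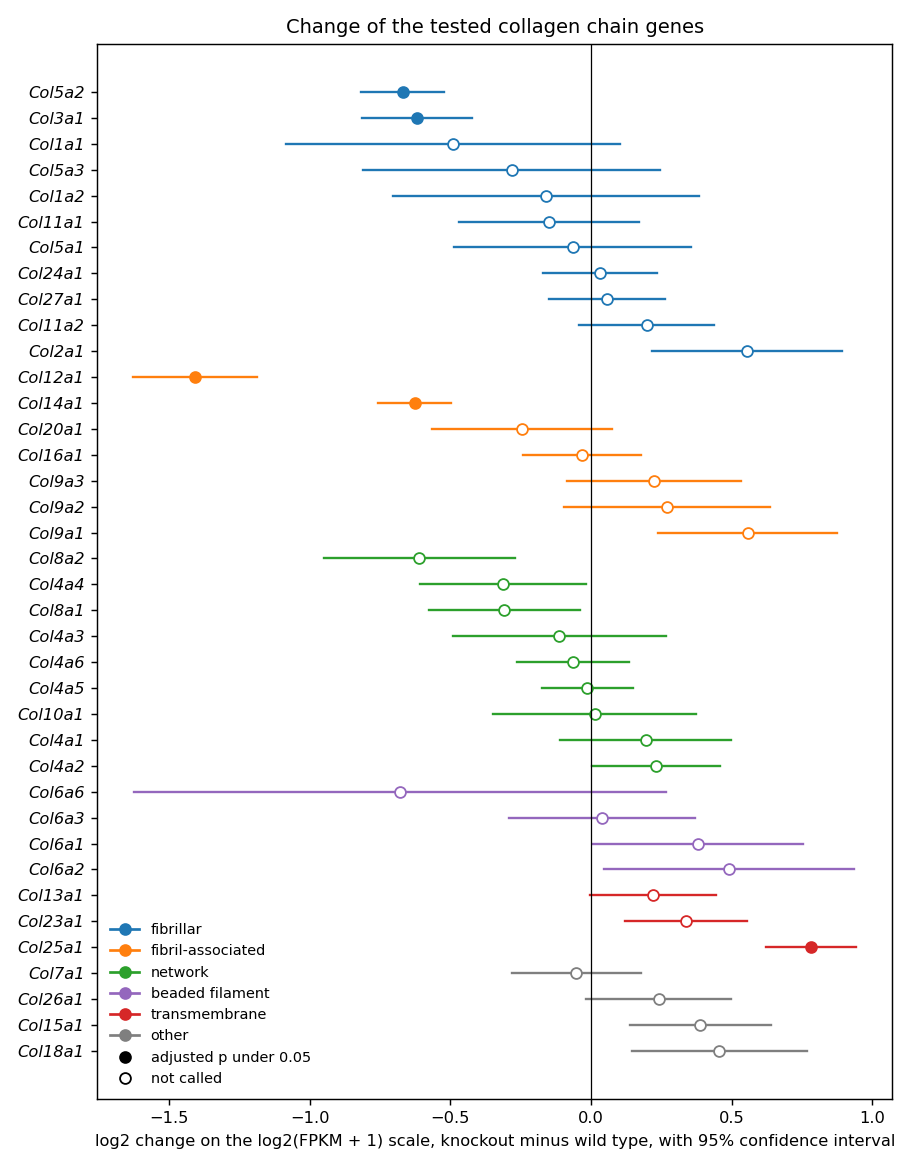
Log2 change of the 38 tested chains on the log2(FPKM + 1) scale, knockout minus wild type, with the 95% confidence interval from limma (n = 3 against 3), coloured by class; filled points passed the test. The largest decrease is that of Col12a1 at -1.41 and the largest increase that of Col25a1 at 0.78.

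Among the fibrillar chains, 2 of 11 were called lower and 0 higher (at an unadjusted p under 0.05, 2 were lower and 1 higher). Col3a1 (ENSMUSG00000026043, chromosome 1, 45311538 to 45349706, GRCm38) encodes the chain of type III collagen, a fibril of elastic organs and vessel walls. It measured 256, 262 and 308 in wild-type and 188, 169 and 179 FPKM in knockout libraries. Every knockout library lay below every wild-type library, and wild-type library 3 was the highest. Col3a1 fell to 64.8% of wild type (275 ± 28.4 to 178 ± 9.61 FPKM, SD, n = 3 each; log2 -0.62, SE 0.08, limma adjusted p = 0.0237). Leaving out wild-type library 3 gave -0.54 (limma adjusted p = 0.0312). The call was lost on leaving out wild-type library 2 (limma adjusted p = 0.0979) or any single knockout library (0.0629, 0.116 and 0.107), with equal sums of FPKM (0.0517), with quantile normalization (0.057) and with no trend option (0.0525), and it held in 8 of the 16 settings tried. The summed smooth muscle markers and Foxd1 were lower in every knockout library too. The summed stromal markers overlapped only narrowly (at least 233 FPKM in wild-type and at most 234 FPKM in knockout libraries). The part of smooth muscle or stromal content, or of Foxd1, in the decreases of Col3a1, Col5a2, Col12a1 and Col14a1 was not tested.

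Col5a2 (ENSMUSG00000026042, chromosome 1, 45374321 to 45503282) encodes the α2 chain of type V collagen, which nucleates fibrils of type I and type III and limits their width. Its levels were 36.9, 36.3 and 41.1 in wild-type and 24.0, 22.6 and 24.0 FPKM in knockout libraries. The knockout libraries lay close together and well below the wild-type libraries. Col5a2 fell to 61.8% of wild type (log2 -0.67, SE 0.06, limma adjusted p = 0.0048), and its call held without any one library and under every other setting tried (limma adjusted p between 0.00384 and 0.0407). The other type V chains were not called. Col5a1, the α1 chain, measured 12.7, 16.5 and 19.9 in wild-type and 18.1, 13.6 and 14.7 FPKM in knockout libraries, with overlap (log2 -0.07, 95% confidence interval -0.49 to 0.36, and 0.08 without wild-type library 3). Col5a3 measured 0.314, 0.485 and 1.47 FPKM against 0.452, 0.356 and 0.359 FPKM, so its difference in means rests on wild-type library 3, without which it no longer reached the filter.

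The type I chains, which make the commonest fibril of connective tissue, varied widely among the wild-type libraries. Col1a1 measured 21.3, 32.3 and 38.2 in wild-type and 21.9, 18.0 and 23.1 FPKM in knockout libraries. Wild-type library 1 lay within the knockout range, and the 95% interval of the log2 change of -0.49 ran from -1.09 to 0.10 (limma adjusted p = 0.383). Col1a2 measured 78.3, 109 and 134 FPKM against 105, 82.1 and 94.2 FPKM, again with overlap (log2 -0.16, 95% confidence interval -0.70 to 0.38). Without wild-type library 3 the changes were -0.32 for Col1a1 and 0.02 for Col1a2. Col2a1, the type II chain of cartilage fibrils, measured 2.95, 4.47 and 4.10 in wild-type and 7.02, 5.80 and 5.39 FPKM in knockout libraries. Its groups did not overlap, but it was not called (log2 0.55, limma adjusted p = 0.155). Its partners in cartilage fibrils were Col11a1 at 5.14 to 7.49 FPKM and Col11a2 at 1.20 to 1.81 FPKM over the 6 libraries. The log2 change of Col11a1 was -0.15, and -0.06 without wild-type library 3. Col27a1 (8.13 to 10.1 FPKM) and Col24a1 (1.87 to 2.09 FPKM), fibrillar chains of an older branch with shorter repeats of 217 and 216 triplets, had log2 changes of 0.06 and 0.03. Of the 11 fibrillar chains 8 were highest in wild-type library 3, and without it the median of the 10 still tested was 0.04, on the other side of 0. Of all genes tested, 15.1% were highest in that library.

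The upstream sequence of Col3a1, the only one of the 4 lower chains present in the RefSeq promoter table (GRCm38.p6), is shown because it carries a match to the TEAD core and one to TATAAA. The stretch is chr1:45311288-45311537, plus strand, from 250 bases before the start site to the base before it, with matches in capitals.
Col3a1: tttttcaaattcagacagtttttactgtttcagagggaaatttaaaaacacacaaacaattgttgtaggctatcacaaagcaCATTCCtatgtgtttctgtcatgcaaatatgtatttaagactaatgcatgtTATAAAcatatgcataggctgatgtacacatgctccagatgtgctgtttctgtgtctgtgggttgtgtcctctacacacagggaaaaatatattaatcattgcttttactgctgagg
The capitals mark CATTCC, the core of the site bound by TEAD, the DNA-binding partner of YAP and TAZ, at position -168, and TATAAA at position -117. Across the 300-base windows (250 before to 50 after the start), the TEAD core (GGAATG or CATTCC, which are the same site on either strand) was found in 5 of 38 windows of 35 collagen genes, or 13.2%, against 14.7% of all 32851 windows of the table. The other genes with it were Col20a1, Col6a2, Col18a1 and Col4a6, of which 0 were called. TATAAA on the gene's strand was found in 13.2% of collagen windows and 8.32% of all windows, and CCAAT or ATTGG in 34.2% and 37.4%. A match describes the letters in this window and not a bound site.

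Of 7 tested fibril-associated chains, 2 were called lower and 0 higher (2 lower and 1 higher at an unadjusted p under 0.05). Col12a1 (ENSMUSG00000032332, chromosome 9, 79598991 to 79718831) had the largest change of any tested chain. It encodes type XII collagen, a long chain with many fibronectin-like and von Willebrand-like domains that bridges fibrils in tissues under tension. It measured 23.7, 23.5 and 24.9 in wild-type and 9.78, 7.40 and 8.24 FPKM in knockout libraries. The wild-type values were tightly grouped, and every knockout value lay far below them. Col12a1 fell to 35.3% of wild type (24.0 ± 0.778 to 8.47 ± 1.21 FPKM, SD, n = 3 each; log2 -1.41, SE 0.09, limma adjusted p = 0.00138), and its call held under every setting tried (log2 between -1.51 and -1.33, limma adjusted p between 0.000969 and 0.0236).

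Col14a1 (ENSMUSG00000022371, chromosome 15, 55307750 to 55520803), which encodes the related type XIV collagen of the fibril surface, measured 22.6, 22.1 and 23.1 in wild-type and 14.9, 14.1 and 13.8 FPKM in knockout libraries. Both groups were tight, and they did not overlap. Col14a1 fell to 63.2% of wild type (log2 -0.63, SE 0.06, limma adjusted p = 0.00438), and its call held in 15 of the 16 settings tried. In wild-type kidneys the 2 genes stood at like levels, and in knockout kidneys Col12a1 stood below Col14a1 in each library. Col16a1 measured 13.5 to 14.3 in wild-type and 12.8 to 15.9 FPKM in knockout libraries, a log2 change of -0.03 (95% interval -0.24 to 0.18). The type IX chains, which coat type II fibrils, had log2 changes above 0. Col9a1 measured 3.06, 4.72 and 4.26 FPKM against 5.70, 6.45 and 6.80 FPKM without overlap (log2 0.56, limma adjusted p = 0.142), while Col9a2 and Col9a3 overlapped between genotypes (log2 0.27 and 0.22). Leaving out 1 library moved Col9a2 to between 0.10 (without wild-type library 1) and 0.41 (without wild-type library 3). For Col9a3 it gave values from 0.14 (without knockout library 1) to 0.33 (without wild-type library 3). Col20a1, at 0.399 to 1.11 FPKM, had a log2 change of -0.25 (-0.13 without wild-type library 1) and overlapped.

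The network chains gave 0 calls among 9 tested (limma; 3 were lower and 1 higher at an unadjusted p under 0.05). Col4a1 and Col4a2 encode the main chains of basement membranes. Col4a1 measured 103, 131 and 117 in wild-type and 156, 116 and 130 FPKM in knockout libraries, and Col4a2 43.5 to 52.7 FPKM against 64.5, 52.2 and 55.6 FPKM. Both overlapped between genotypes, with knockout library 1 the highest for both. Their log2 changes were 0.19 (SE 0.13, limma adjusted p = 0.497) and 0.23 (SE 0.10, limma adjusted p = 0.307). Leaving out knockout library 1 gave 0.08 and 0.15. Col4a5 and Col4a6, chains of specialised basement membranes, measured 12.9 to 14.7 and 3.03 to 3.62 FPKM over the 6 libraries, with log2 changes of -0.01 and -0.06.

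Col4a3 and Col4a4 encode, with Col4a5, the chains of the mature glomerular basement membrane made by podocytes, and were near the low end of the tested range. Col4a4 measured 1.59, 1.21 and 0.974 in wild-type and 0.846, 0.901 and 0.680 FPKM in knockout libraries, without overlap (log2 -0.31, limma adjusted p = 0.288). Col4a3 measured 1.19, 1.14 and 0.527 FPKM against 0.982, 0.756 and 0.629 FPKM and overlapped (log2 -0.11, and -0.28 without wild-type library 3). Type VIII collagen, a short-chain network of vessel walls and Descemet's membrane, showed lower values for both chains. Col8a2 measured 5.38, 4.88 and 6.52 in wild-type and 4.13, 2.70 and 3.17 FPKM in knockout libraries (59.6% of wild type, log2 -0.61, SE 0.15, limma adjusted p = 0.133). Col8a1 measured 0.947, 0.625 and 0.873 FPKM against 0.526, 0.513 and 0.351 FPKM (log2 -0.31, limma adjusted p = 0.258). The groups of both genes did not overlap, and neither passed the test. Col10a1, the hypertrophic cartilage chain, stood at 1.18 to 2.30 FPKM with a log2 change of 0.01.

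Among the beaded filament chains of type VI, 0 of 4 tested were called by limma (0 lower and 2 higher at an unadjusted p under 0.05). Col6a1 measured 24.1, 25.3 and 33.4 in wild-type and 42.5, 32.1 and 34.0 FPKM in knockout libraries (log2 0.38, SE 0.15, adjusted p = 0.304). Col6a2, whose chain pairs with that of Col6a1, measured 15.2, 16.2 and 22.8 FPKM against 30.3, 22.0 and 24.5 FPKM (log2 0.49, SE 0.18, limma adjusted p = 0.275). For both, wild-type library 3 reached into the knockout range, and without it the changes were 0.52 and 0.66 (limma adjusted p = 0.0978 and 0.078). Without knockout library 1, the highest, they were 0.26 and 0.37 (limma adjusted p = 0.478 and 0.445). Col6a3, the large chain that completes the molecule, measured 21.3, 21.1 and 28.8 FPKM against 27.8, 22.3 and 22.8 FPKM, a log2 change of 0.04 (95% interval -0.29 to 0.37) that became 0.18 without wild-type library 3 and -0.06 without knockout library 1. Col6a6, an alternative to that large chain found in skeletal muscle among other tissues, measured 0.960, 1.26 and 4.05 in wild-type and 0.988, 0.585 and 0.733 FPKM in knockout libraries. Its log2 change of -0.68 became -0.26 without wild-type library 3, the library with the highest skeletal muscle transcripts.

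The transmembrane chains held the 1 collagen called higher, among 3 tested. Col25a1 (ENSMUSG00000058897, chromosome 3, 130131501 to 130599877) encodes a membrane collagen of neurons and other cells, known for its role in the innervation of muscle and for its shed form in amyloid plaques. It measured 9.48, 8.45 and 9.35 in wild-type and 16.4, 15.7 and 16.9 FPKM in knockout libraries. Each group was tight, and the groups lay far apart. Col25a1 rose to 180% of wild type (9.09 ± 0.560 to 16.4 ± 0.612 FPKM, SD, n = 3 each; log2 0.78, SE 0.07, limma adjusted p = 0.00402), and its call held under every setting tried (limma adjusted p between 0.0031 and 0.0387). Col23a1 measured 6.74, 8.07 and 8.08 in wild-type and 10.7, 9.12 and 9.88 FPKM in knockout libraries (log2 0.34, limma adjusted p = 0.172). Col13a1, a collagen of cell adhesion sites and the neuromuscular junction, measured 5.24, 5.13 and 5.18 FPKM against 7.17, 5.77 and 5.74 FPKM (log2 0.22, limma adjusted p = 0.32, and 0.13 without knockout library 1). All 3 tested transmembrane chains were higher in each knockout library than in any wild-type library, as were 12.5% of all genes tested, and 1 of them passed the test. Col17a1, the transmembrane chain below the filter, overlapped between genotypes.

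The sequence before the RefSeq start site of Col25a1 is shown as the counterpart of that of Col3a1. The stretch is chr3:130180595-130180844, plus strand of GRCm38.p6, inside the GENCODE gene and outside its exons, with the match in capitals.
Col25a1: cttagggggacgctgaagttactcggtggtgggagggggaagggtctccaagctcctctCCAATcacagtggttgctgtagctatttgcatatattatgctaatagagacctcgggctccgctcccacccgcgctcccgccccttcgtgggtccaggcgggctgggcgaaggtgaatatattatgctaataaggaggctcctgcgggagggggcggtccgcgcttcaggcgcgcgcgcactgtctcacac
The capitals mark CCAAT at position -191, and neither the TEAD core nor TATAAA was present in these letters.

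Among the remaining chains, 0 of 4 tested were called by limma (0 lower and 2 higher at an unadjusted p under 0.05). Col18a1 and Col15a1 encode the multiplexins, proteoglycan-like collagens of basement membranes whose ends release endostatin and its relative. Col18a1 measured 43.9, 53.4 and 53.9 in wild-type and 83.0, 62.1 and 64.4 FPKM in knockout libraries (139% of wild type, log2 0.46, SE 0.13, limma adjusted p = 0.187). Col15a1 measured 9.95, 11.7 and 10.6 FPKM against 16.7, 12.5 and 14.0 FPKM (134% of wild type, log2 0.39, SE 0.11, limma adjusted p = 0.172). The groups of both did not overlap, and both were highest in knockout library 1, without which the changes were 0.33 and 0.29. That library held the highest value for 15 of the 38 tested chains, among them Col4a1, Col4a2, Col6a1 and Col6a2, against 20.5% of all genes. The 7 kidney markers summed to 125 FPKM in it, against 108 and 111 FPKM in the other knockout libraries and 95.4 to 103 FPKM in wild-type libraries. What this has to do with the collagen values was not tested. Col26a1 measured 21.4 to 28.9 in wild-type and 28.8 to 32.3 FPKM in knockout libraries (log2 0.24, and 0.12 without wild-type library 1), and Col7a1, the anchoring fibril chain of epithelia, 0.919 to 1.24 FPKM (log2 -0.05).

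The 6 chains below the filter were Col6a4, Col6a5, Col17a1, Col19a1, Col22a1 and Col28a1. Col6a5, a type VI chain of restricted expression, measured 0.432, 0.266 and 0.434 in wild-type and 0.0208, 0.00793 and 0.0196 FPKM in knockout libraries. On a transcript of 8046 bases these correspond to about 44.3, 30.4 and 46.5 fragments against about 2.5, 0.8 and 2.4 fragments, so the gene was at the edge of detection in knockout kidneys and clearly above it in wild-type kidneys. When genes were tested with no filter on low values, Col6a5 was called lower (log2 -0.44 on the log2(FPKM + 1) scale, SE 0.06, limma adjusted p = 0.0441). With each library left out in turn that call held only without wild-type library 2 (limma adjusted p = 0.0455) and was otherwise lost (0.0795 to 0.208). Its position (chromosome 9, 105856078 to 105960643) lies between Col6a6 and Col6a4, and Col6a4 measured 0.191 to 0.312 FPKM with overlap between genotypes. Col28a1 stood at 0.055 to 0.174 in wild-type and 0 to 0.0364 FPKM in knockout libraries, at most about 9.8 fragments, and was not called with no filter (limma adjusted p = 0.407). Col17a1, Col19a1 and Col22a1 lay between 0.152 and 0.513 FPKM and overlapped.

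Ratios between chains of 1 collagen type do not depend on how libraries are scaled to each other. For 11 pairs of chains, including Col3a1 to Col1a1 across types, the ratio of FPKM was compared by an exact two-sided permutation test over samples, whose smallest p at 3 against 3 is 0.1 (adjusted over the 11 pairs, 0.275), so that no pair could pass 0.05. The groups did not overlap for 4 pairs. Labels assigned at random would separate a given pair at a rate of 0.1. Single genes separated more often than that in these data, 11.8% of all genes tested in the lower and 12.5% in the higher direction. No share over other pairs of genes was worked out, and pairs that share a chain, as those with Col6a1 do, are not independent. Col5a1 to Col5a2 was 0.343, 0.456 and 0.484 in wild-type and 0.753, 0.603 and 0.611 in knockout libraries (log2 difference 0.62, exact p = 0.1). Col5a2 fell, and Col5a1 was not called. Col1a1 to Col1a2 was 0.272, 0.297 and 0.286 against 0.209, 0.220 and 0.245 (log2 difference -0.35, exact p = 0.1). The 3 wild-type libraries lay close together in this ratio, although their levels of each gene did not.

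Within type VI, Col6a3 to Col6a1 was 0.883, 0.836 and 0.861 in wild-type and 0.655, 0.697 and 0.671 in knockout libraries (log2 difference -0.35, exact p = 0.1). Col6a1 to Col6a2 was 1.59, 1.56 and 1.47 against 1.40, 1.46 and 1.39 (log2 difference -0.12, exact p = 0.1). The ratio of Col6a3 to Col6a1 was thus lower in each knockout library than in any wild-type library, a separation that this test could not call. None of the 3 genes was called by itself. In basement membrane collagen, Col4a1 to Col4a2 was 2.36, 2.49 and 2.33 against 2.42, 2.23 and 2.34, with overlap (log2 difference -0.04, exact p = 0.5). Col4a5 to Col4a6 was 3.72 to 4.38 against 4.21 to 4.55, also with overlap. The remaining pairs (Col4a3 to Col4a4, Col8a1 to Col8a2, Col9a1 to Col9a2, Col11a1 to Col11a2 and Col3a1 to Col1a1) overlapped as well.

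**Figure D3:**
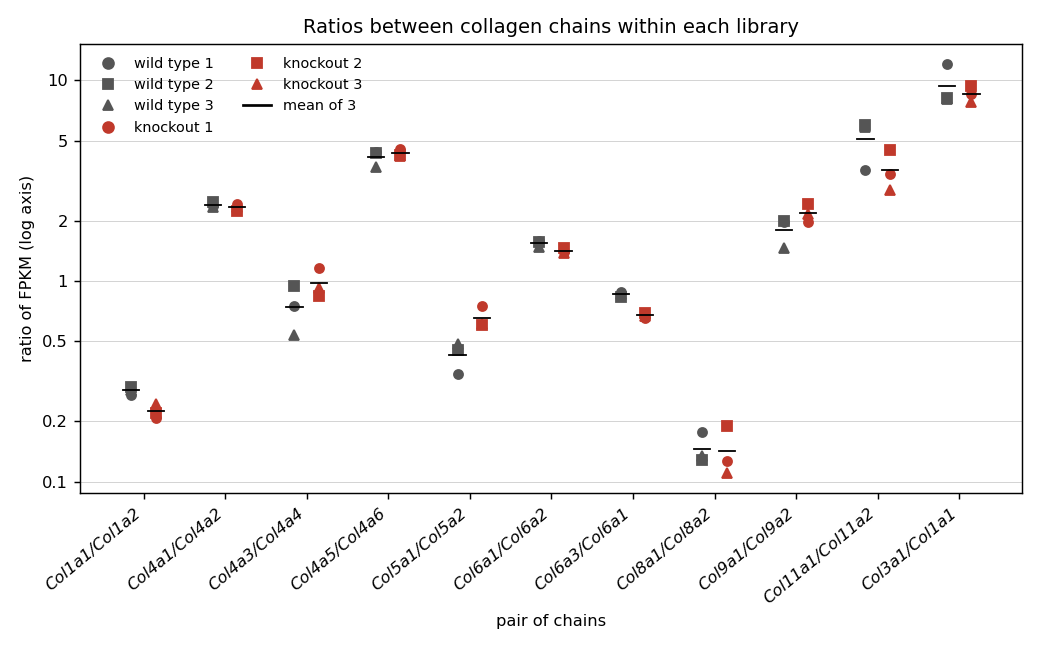
Ratio of the FPKM of 2 collagen chains within each library (log axis) for 11 pairs, with wild-type libraries in grey, knockout libraries in red, 1 symbol shape per replicate number and the mean of 3 as a black bar. The groups do not overlap for Col1a1/Col1a2, Col5a1/Col5a2, Col6a1/Col6a2 and Col6a3/Col6a1, while Col4a1/Col4a2 stays between 2.23 and 2.49 in all 6 libraries.

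Several collagen genes are neighbours in the genome. Col3a1 and Col5a2, both called lower, lie tail to tail on chromosome 1 with 24614 bases between them and 0 protein-coding genes in the gap. Their levels stood at 64.8% and 61.8% of wild type. Of the other close pairs, Col9a1 and Col19a1 lie tail to tail 9205 bases apart, and Col6a1 and Col6a2 lie in the same direction 85161 bases apart. The type IV genes lie head to head: Col4a1 and Col4a2 overlap by 22 bases at their first exons (chromosome 8, 11312805 to 11312826), and the starts of Col4a6 and Col4a5 are separated by 1308 bases on chromosome X. Because of the overlap, reads at the first exons of Col4a1 and Col4a2 can be told apart only with strand information, and the labels do not tell whether the library kit kept it. Exons of Col5a1, Col9a3, Col15a1, Col10a1, Col6a4, Col6a6, Col22a1 and Col4a3 overlap a gene on the opposite strand, and those of Col3a1, Col7a1 and Col20a1 one on their own strand (a miRNA model for Col3a1), so their levels carry that uncertainty. Col4a4 and Col4a3 start 71 bases apart, and the interval between the starts is chr1:82586850-82586920, minus strand, shown because the 2 genes share it and differ in whether their groups overlap; it held none of the motifs searched.
Col4a4-Col4a3 interval: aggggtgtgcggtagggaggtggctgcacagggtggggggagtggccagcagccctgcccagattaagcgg

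Genes whose products modify, process, cross-link, bind or cleave collagen were examined as the other side of the pathway. The 15 genes of prolyl and lysyl modification had 0 calls by limma (2 lower and 1 higher at an unadjusted p under 0.05) and a median log2 change of -0.03, against -0.002 over all genes tested. Their smallest p values belonged to P4ha3, a prolyl 4-hydroxylase subunit (3.91, 4.55 and 3.72 against 2.67, 2.64 and 2.69 FPKM, log2 -0.46, limma adjusted p = 0.0889), and Plod2, the lysyl hydroxylase of the cross-linking telopeptides (log2 -0.30, adjusted p = 0.146). The 9 genes of folding and export had 0 calls by limma (2 lower and 0 higher unadjusted) and a median of -0.06, with log2 changes of -0.26 for the prolyl isomerase Fkbp14 and -0.14 for the coat protein Sec24d. Serpinh1, the collagen chaperone HSP47, measured 451 to 460 in wild-type and 429 to 490 FPKM in knockout libraries.

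Among 7 tested genes of propeptide processing, with a median of 0.08, 1 was called lower and 0 higher (2 lower and 0 higher at an unadjusted p under 0.05). Of all genes tested, 0.604% were called lower. Pcolce, the enhancer of the protease that trims the carboxy-terminal propeptide of fibrillar collagens, fell from 30.3, 28.7 and 31.8 FPKM in wild-type to 20.3, 19.8 and 20.7 FPKM in knockout libraries, without overlap (67.0% of wild type, log2 -0.55, SE 0.06, limma adjusted p = 0.00715). The protease itself, Bmp1, was not called (log2 0.21). Of 5 cross-linking genes, which join collagen chains covalently, 1 was called lower, Lox (17.3, 15.3 and 16.9 against 5.94, 4.67 and 4.64 FPKM, limma adjusted p = 0.00138). Its relatives ranged from -0.37 for Loxl4 to 0.32 for Loxl1 and were not called, and the median of the 5 was -0.26. At an unadjusted p under 0.05, 3 of the 5 were lower and 0 higher. Lox, Loxl3 and Loxl4 were lower without overlap, as were 11.8% of all genes tested. Pcolce shares exon sequence with Fbxo24 on its own strand (mean 0.382 FPKM). Exons of Lox, Pcolce, Plod2, Fkbp14, Ddr1 and Ddr2 overlap a gene model on the opposite strand, so their levels are uncertain without strand information.

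Of 8 receptor and uptake genes 0 were called by limma (3 lower and 1 higher unadjusted), with a median of -0.13. The collagen receptor kinases lay on opposite sides of 0. Ddr2, found mainly in mesenchymal cells, measured 30.4, 33.3 and 38.8 in wild-type and 24.8, 25.0 and 27.4 FPKM in knockout libraries (log2 -0.39, limma adjusted p = 0.131), and Ddr1, found mainly in epithelial cells, 9.92, 12.2 and 12.1 against 18.5, 15.8 and 14.5 FPKM (log2 0.48, limma adjusted p = 0.124). For neither gene did the groups overlap, and neither passed the test. Of 4 tested cleavage genes 0 were called by limma (1 lower and 1 higher unadjusted, median -0.03), with log2 changes of -0.47 for the protease Fap and 0.19 for the gelatinase Mmp2.

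**Figure D4:**
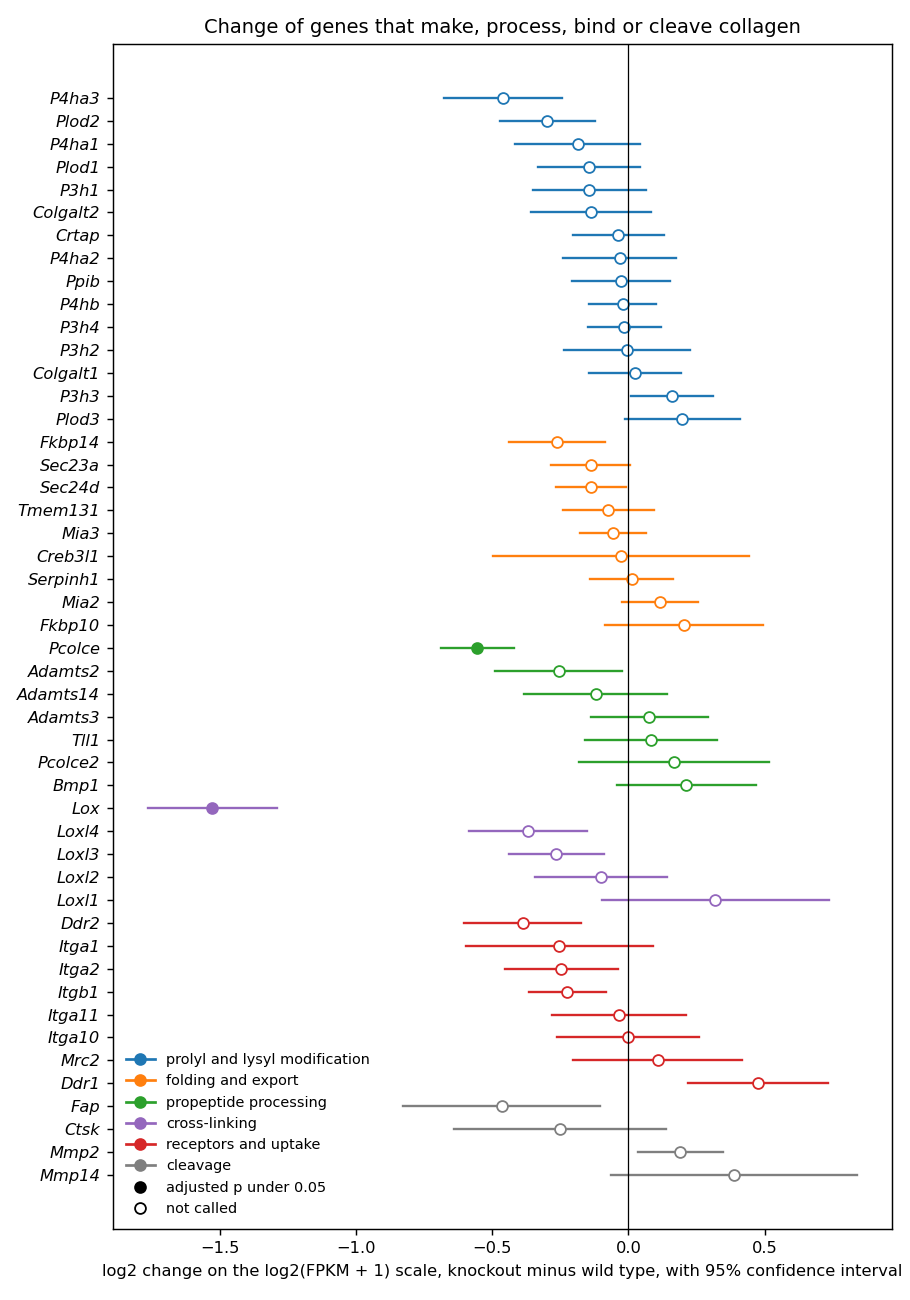
Log2 change on the log2(FPKM + 1) scale, knockout minus wild type, with 95% confidence interval from limma (n = 3 against 3), for the tested genes that modify, fold, process, cross-link, bind or cleave collagen, coloured by list; filled points passed the test. Lox at -1.53 and Pcolce at -0.55 are the called genes, and the intervals of most other genes reach or cross 0.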

How the data were processed

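Gene expression in 6 libraries of E15.5 mouse kidney was taken from 1 table of FPKM values that the authors deposited. The tools named per the submitters' processing notes are bcl2fastq 2.17.1.14 (read demultiplexing) and Salmon (quantification), with the build GRCm38 (mm10). The version of Salmon and the annotation are not given in the sources used. Columns were matched to samples by title. The members and lists were chosen with earlier results of these data known. The 16899 of 24749 genes averaging 0.5 FPKM or more were fitted as log2(FPKM + 1), pseudocount 1, with limma 3.58.1 in R 4.3.3 (genotype only, trend and robust moderation) and Benjamini-Hochberg adjustment over all of them. Log2 changes are on that scale, which understates changes of low genes; percentages compare mean FPKM. The script was tested on simulated data, where it called 49.8% of changes of log2 0.5 and 85.4% of changes of log2 1. A chain that was not called may therefore still differ by such amounts.

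Named with full values were called members, the 2 smallest p values of classes without a call, and the most abundant member of each class; further members and list genes are named for their role. Depth was approximated from the value of 1 fragment on genes with 1 transcript of at least 2000 bases, assuming a depth from 10000000 to 20000000 fragments. Coding repeats came from GENCODE M21 transcripts, in place of the planned proteins, and promoters from RefSeq (GRCm38.p6), which matched 35 of 44 members.

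Alternatives were other pseudocounts, filters, scalings and moderation, a replicate block, and each library left out. Some marker lists are not reported here.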

Additional observations from a re-analysis of the deposited data

How the results depend on the processing

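The 4 lower and 1 higher collagen calls gave 3 to 5 lower and 1 higher under every alternative but the replicate block, which left 2 lower (Col12a1 and Col5a2) and 1 higher. Deviations of same-numbered libraries correlated at 0.02, -0.04 and 0.05, so the numbers were not taken as pairs. With the replicate block, 30 genes were called lower and 2 higher over all genes, against 102 and 22 without it, and Col14a1 (adjusted p = 0.0559), Col3a1 (0.109), Pcolce (0.0592), Wwtr1 (0.108) and, with no filter, Col6a5 (0.176) lost their calls. Col3a1 also lost its call with equal sums of FPKM (adjusted p = 0.0517), quantile normalization (0.057) or no trend option (0.0525). With equal sums or no trend option 12 genes were called higher over all genes. Leaving out each library in turn gave 47 to 103 genes called lower and 7 to 55 called higher (103 and 55 without wild-type library 3, 47 and 7 without wild-type library 2), and 3 to 4 collagen chains lower. With a mean of at least 1 FPKM the median of the fibril-associated chains was 0.10 in place of -0.03, as fewer chains were tested. The beaded filament median of 0.21 was 0.03 with no filter and ranged from 0.10 to 0.35 with 1 library left out. The 4 chain ratios without overlap were 4 to 6 with 1 library left out. Testing with no filter and a pseudocount of 0.1, chosen after seeing the data, called Col6a5 (log2 -2.02, adjusted p = 0.0251). Below about 0.1 FPKM a value rests on few fragments, which limits what can be said of Col6a5 and Col28a1.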
